A study of Mus musculus with 32 samples.

Results

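Muscle precursor cells leave the somites and migrate into the limb bud, and 9 genes that mark or drive this lineage were followed in the ATAC-seq summit lists of mouse limb buds. They were Pax3, Pax7, Lbx1, Met, Eya1, Myf5, Myod1, Myog and Mef2c, 9 of the 21951 protein-coding genes of the annotation. A summit is the point of strongest signal of a peak of accessible chromatin. A summit was assigned to a gene when it lay in the gene body or within 50 kb of it and its nearest protein-coding start was one of that gene's. By this rule 958 of the 1234971 summits in the 32 lists belonged to the 9 genes. The summits of all lists were joined into intervals of 200 bp, called sites here, and 135 of the 133148 sites that at least 2 lists shared belonged to the 9 genes. Of these, 18 lay within 1 kb of a start and are called promoter sites, and 117 were distal. A site counted as listed where a summit was no more than 200 bp from its centre, so that a summit between neighbouring sites can count for both.

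Limb muscle does not arise from the limb bud mesenchyme itself. Its precursors delaminate from the lateral lip of the somite, travel into the bud under the control of Pax3, the receptor tyrosine kinase Met and the homeodomain factor Lbx1, and gather in a dorsal and a ventral mass. There the myogenic determination factors Myf5 and Myod1 and then the differentiation factor Myog are switched on, with Mef2c as a partner of these factors and Pax7 marking the later progenitor pool. Several of these genes also act outside muscle, Eya1 and Mef2c in other limb and vascular tissues, Met in epithelia, and Pax3, Pax7 and Lbx1 in the neural tube or neural crest, so that a summit near them does not by itself mark a muscle cell.

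ATAC-seq inserts adapters where DNA is not wrapped in nucleosomes. The 32 libraries came from 2 experiments, 18 libraries of limb bud cell populations and 14 of an overexpression experiment. EYFP+ cells, negative for the endothelial and blood surface proteins CD31, TIE2 and CD45, were sorted from E10.5 embryos of the Etv2-EYFP transgenic line, in which an Etv2 regulatory sequence drives EYFP, bred to CD1 females. There were 3 forelimb (FL EYFP+) and 3 hindlimb (HL EYFP+) libraries. Forelimb and hindlimb libraries of the same replicate number share a further number, read here as that of a pool of limb buds. The other sorted library, E10.5 Posterior, held Shh-EGFP+ cells of Shh-EGFP posterior hindlimbs. A further 11 libraries were not described as sorted on a reporter and are called unsorted here. They came from posterior hindlimb cells of Etv2CKO embryos (5 libraries at E10.25 and 2 at E10.5, named E10.25 CKO and E10.5 CKO), from posterior hindlimb cells of wild-type embryos (2 libraries, named E10.25 WT), from the anterior hindlimb of Shh-EGFP embryos (1 library, E10.5 Anterior) and from the whole wild-type hindlimb bud of an earlier stage (1 library, E9.5 HL). Etv2CKO embryos were HoxB6-Cre Tg/+; Etv2 fl/-, and HoxB6-Cre acts in the whole hindlimb and in part of the forelimb mesoderm. In the overexpression experiment the portions labelled A and P of 3 Etv2OE embryos and 4 controls, all labelled E10.5, were profiled, and they are called anterior and posterior here. Etv2OE embryos carried HoxB6-Cre, the doxycycline-inducible iHA-Etv2 transgene and ROSA26-STOP-rtTA-IRES-EGFP, and controls were littermates that lacked a transgene. The methods describe doxycycline injections and a harvest at later stages for this cross. These 14 libraries were not described as sorted on a reporter either, but are kept apart from the 11 called unsorted.

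The lists held 13763 to 54676 nuclear summits, with the fewest in E10.5 Anterior and in E10.25 CKO replicates 2 and 4 (15626 and 19734). The lists give no read counts, and a summit that is not listed is not shown to be closed. Promoters of 34.3 to 58.4% of all protein-coding genes held a summit. As a check of the labels, of 7 limb mesenchyme markers 4 to 7 had a listed promoter in the EYFP+ lists, 2 to 6 in the unsorted and 4 to 6 in the overexpression lists. Of 7 endothelial and blood markers 1 to 3, 1 to 3 and 1 to 4 were listed, of 7 ectoderm markers 0 to 3, 0 to 5 and 0 to 3, of 5 neural crest and nerve markers 0 to 1, 0 to 3 and 0 to 1, and of 5 somite markers 0 to 4, 0 to 4 and 0 to 4. Of the endothelial and blood markers, the promoters of Pecam1, Ptprc and Cdh5 were in no list, whereas that of the receptor Kdr was in all 6 EYFP+, all 11 unsorted and all 14 overexpression lists, and those of Erg, Tal1 and Tek were in 4, 6 and 11, in 2, 8 and 3, and in 1, 0 and 3 of these lists. The part of endothelial and blood cells in the results was not tested. FL EYFP+ and HL EYFP+ replicate 3, which share a pool, stood apart: these 2 alone among the 6 EYFP+ lists held a summit at the promoter of Tbx5, the forelimb factor, and both also listed the promoters of the hindlimb factors Tbx4 and Pitx1, which FL EYFP+ replicates 1 and 2 did not. Tests on the EYFP+ lists are therefore also given without this pool.

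Of the sites described below, 7 are shown first. They are 200 bp of GRCm38.p6 (the assembly of mm10), read 5′ to 3′ on the strand of the gene. The Pax3 window at 9.4 kb and the Pax7 window passed the threshold in no comparison. Capitals mark matches, on either strand, to CAGCTG (an E-box bound by myogenic factors), TAATTA (bound by homeodomain proteins), AGGAAGT or AGGAAAT (bound by ETS factors) and TCAGGTTTC (the MEF3 word of muscle gene promoters). The distance is to the nearest annotated start of the gene.
Myod1, 36.5 kb upstream, intergenic, listed in all EYFP+ and no unsorted list, chr7:46339863-46340062, plus strand: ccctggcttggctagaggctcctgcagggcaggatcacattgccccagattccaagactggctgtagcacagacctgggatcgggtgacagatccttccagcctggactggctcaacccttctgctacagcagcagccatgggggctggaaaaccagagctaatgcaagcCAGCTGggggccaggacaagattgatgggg
Eya1, 158.4 kb downstream of the start and 22.8 kb beyond the gene, intergenic, ranked higher in EYFP+ cells, chr1:14146090-14146289, minus strand: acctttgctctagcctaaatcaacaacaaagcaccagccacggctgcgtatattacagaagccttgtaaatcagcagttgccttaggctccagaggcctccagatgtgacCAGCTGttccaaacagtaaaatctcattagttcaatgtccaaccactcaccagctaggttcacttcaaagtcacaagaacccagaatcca
Pax3, 67.4 kb downstream, intron of Pax3, ranked higher in EYFP+ cells, chr1:78129340-78129539, minus strand: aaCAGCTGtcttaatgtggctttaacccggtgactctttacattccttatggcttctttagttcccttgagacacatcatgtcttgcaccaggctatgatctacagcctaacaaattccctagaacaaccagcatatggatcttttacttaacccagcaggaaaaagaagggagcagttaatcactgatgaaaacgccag
Pax3, 9.4 kb downstream, intron of Pax3, mostly in unsorted lists, chr1:78187343-78187542, minus strand: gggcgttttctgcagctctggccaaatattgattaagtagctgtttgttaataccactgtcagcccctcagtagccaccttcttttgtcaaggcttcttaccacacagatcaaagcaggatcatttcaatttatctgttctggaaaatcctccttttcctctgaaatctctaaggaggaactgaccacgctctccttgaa
Pax7, 85.7 kb downstream, intron of Pax7, in no overexpression list, chr4:139747210-139747409, minus strand: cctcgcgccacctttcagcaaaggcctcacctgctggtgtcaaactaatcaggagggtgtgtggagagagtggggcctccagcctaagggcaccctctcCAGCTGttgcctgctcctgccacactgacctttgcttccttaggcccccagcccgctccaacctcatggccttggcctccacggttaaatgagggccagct
Met, 9.8 kb before an internal start, intron of Met, in posterior portions, chr6:17481305-17481504, plus strand: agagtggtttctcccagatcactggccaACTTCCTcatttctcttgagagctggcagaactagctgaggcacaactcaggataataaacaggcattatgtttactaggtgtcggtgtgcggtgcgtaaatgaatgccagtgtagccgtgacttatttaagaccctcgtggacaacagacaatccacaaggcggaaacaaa
Mef2c, 36.8 kb downstream, intron of Mef2c, in FL EYFP+ and overexpression lists, chr13:83612350-83612549, plus strand: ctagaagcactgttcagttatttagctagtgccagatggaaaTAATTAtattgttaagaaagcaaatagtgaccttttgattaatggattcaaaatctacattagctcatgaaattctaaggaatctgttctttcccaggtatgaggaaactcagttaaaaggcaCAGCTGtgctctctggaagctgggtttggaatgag

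These windows differed in their words. Of the 7 windows, those of Myod1, Eya1 at 158.4 kb, Pax3 at 67.4 kb, Pax7 and Mef2c held CAGCTG, the Mef2c window also held TAATTA, the Met window held AGGAAGT read on the other strand, and the Pax3 window at 9.4 kb held none of the 5 words. Over all 117 distal sites of the 9 genes, 16.2% held CAGCTG, against 16.4% of the 104389 distal sites of the series, so the E-box was no more frequent than elsewhere. TAATTA was in 12% against 9.55%, AGGAAGT in 5.13% against 5.84%, AGGAAAT in 3.42% against 8.07%, and TCAGGTTTC in 0 against 0.57%. The other sites of Eya1 and Mef2c that were called in whole lists with no library left out are not shown. None of them held CAGCTG. The Eya1 site 47.7 kb upstream, called without the pool of replicate 3, is not shown either and held CAGCTG. The words in the 7 windows therefore depend on which sites are shown. These shares are descriptions of letters in 200-bp windows.

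**Figure D1:**
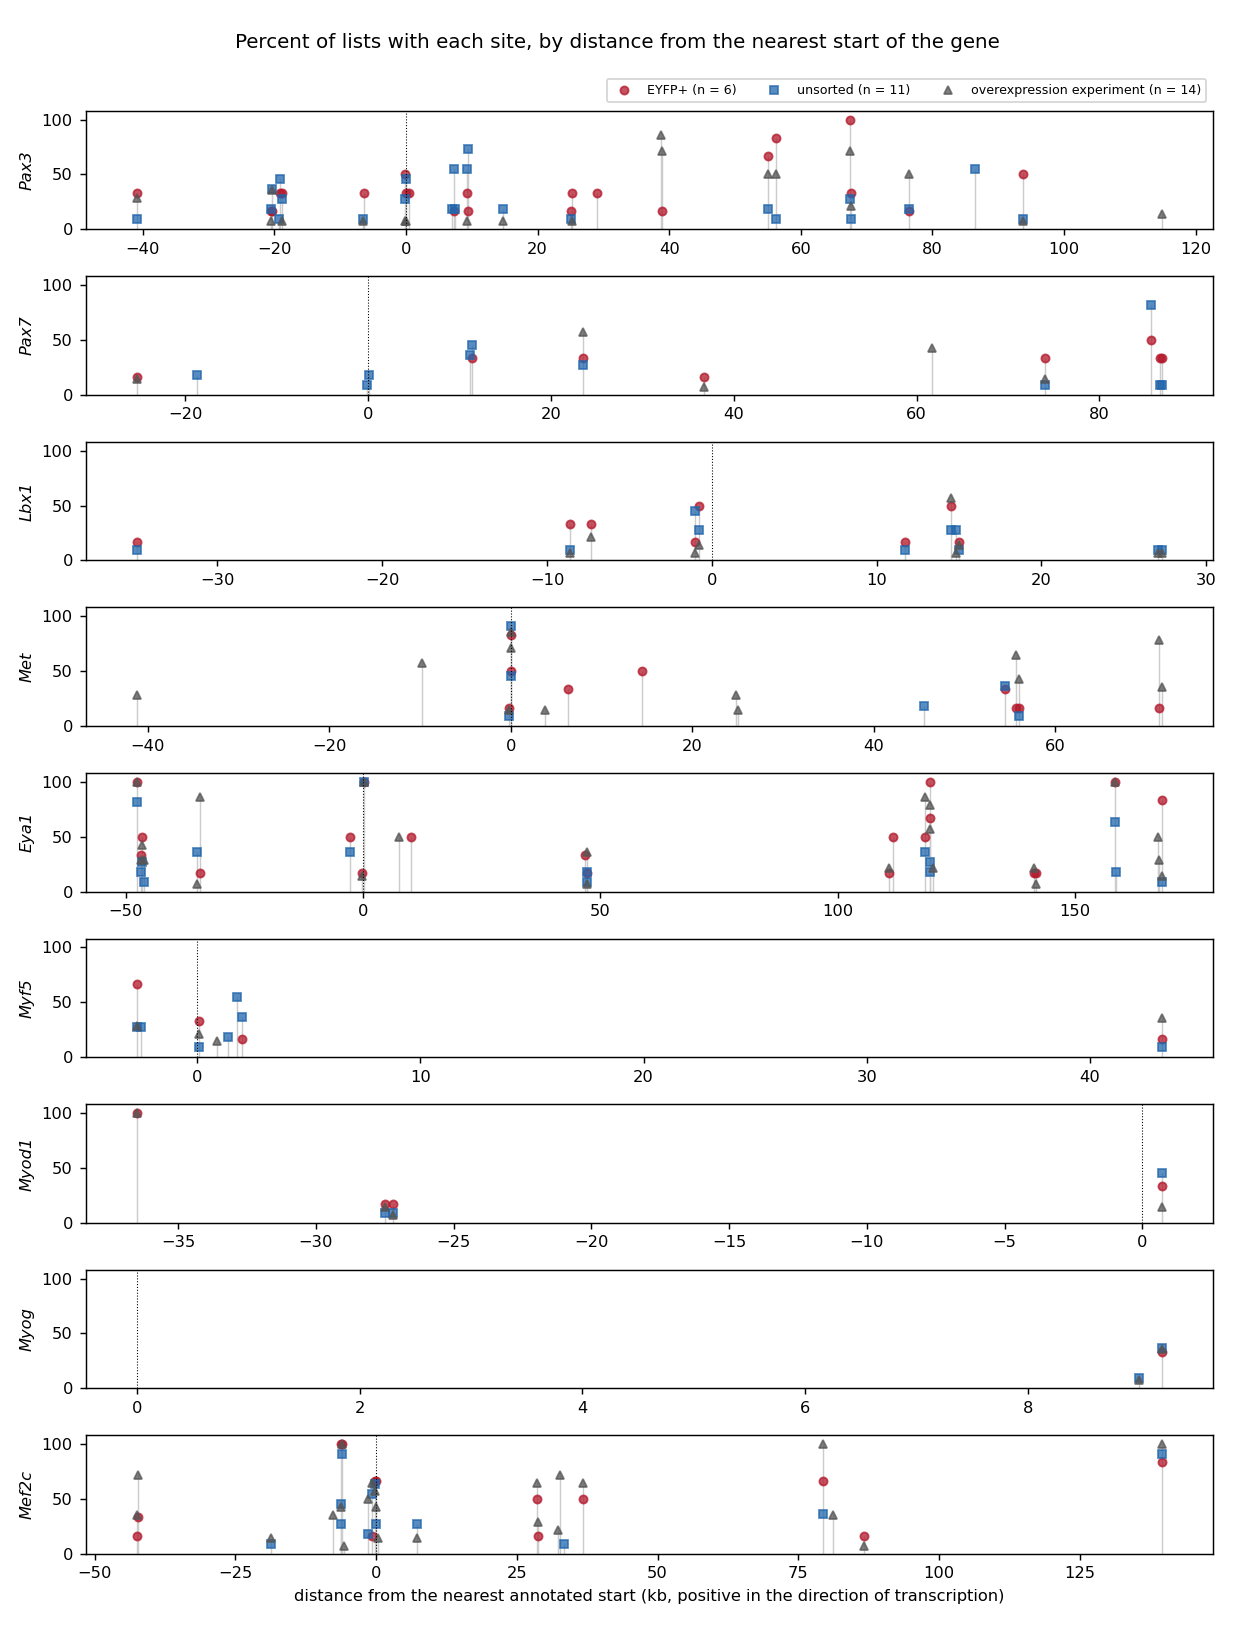
Percent of lists that held each of the 135 sites (vertical axis) against its distance from the nearest annotated start of the gene in kb (horizontal axis, a separate scale for each gene), for the EYFP+, unsorted and overexpression lists. Eya1 and Mef2c had several sites in nearly all lists of each set, the Myod1 site 36.5 kb upstream was in 6 of 6 EYFP+ and 14 of 14 overexpression lists but 0 of 11 unsorted lists, and Myog had no promoter site.

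The 9 genes differed widely in how much listed chromatin they had. Eya1, a phosphatase and transcriptional co-activator (chr1:14168954-14310235), had 243 summits and 27 sites, and Mef2c (chr13:83504034-83667080) had 242 summits and 24 sites. Pax3, the paired-box factor of the migrating precursors (chr1:78101267-78197134), had 168 summits and 30 sites. Met, the receptor for the growth factor HGF (chr6:17463800-17573980), had 95 summits and 16 sites, and Pax7 (chr4:139737062-139833528) had 66 and 13. The short genes had the fewest, with 55 summits for Lbx1 (chr19:45232684-45235812), 40 for Myf5 (chr10:107482908-107486134), 35 for Myod1 (chr7:46376474-46379099) and 14 for Myog (chr1:134289989-134292548). Longer genes offer more sequence to the rule, so these counts are not a ranking of accessibility. Of the distal sites, 68 lay in introns, 6 in exons and 43 between genes. A distal site of the 9 genes was listed in a median of 5 lists, against 6 for all distal sites, and a promoter site in a median of 8 against 15.

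**Figure D2:**
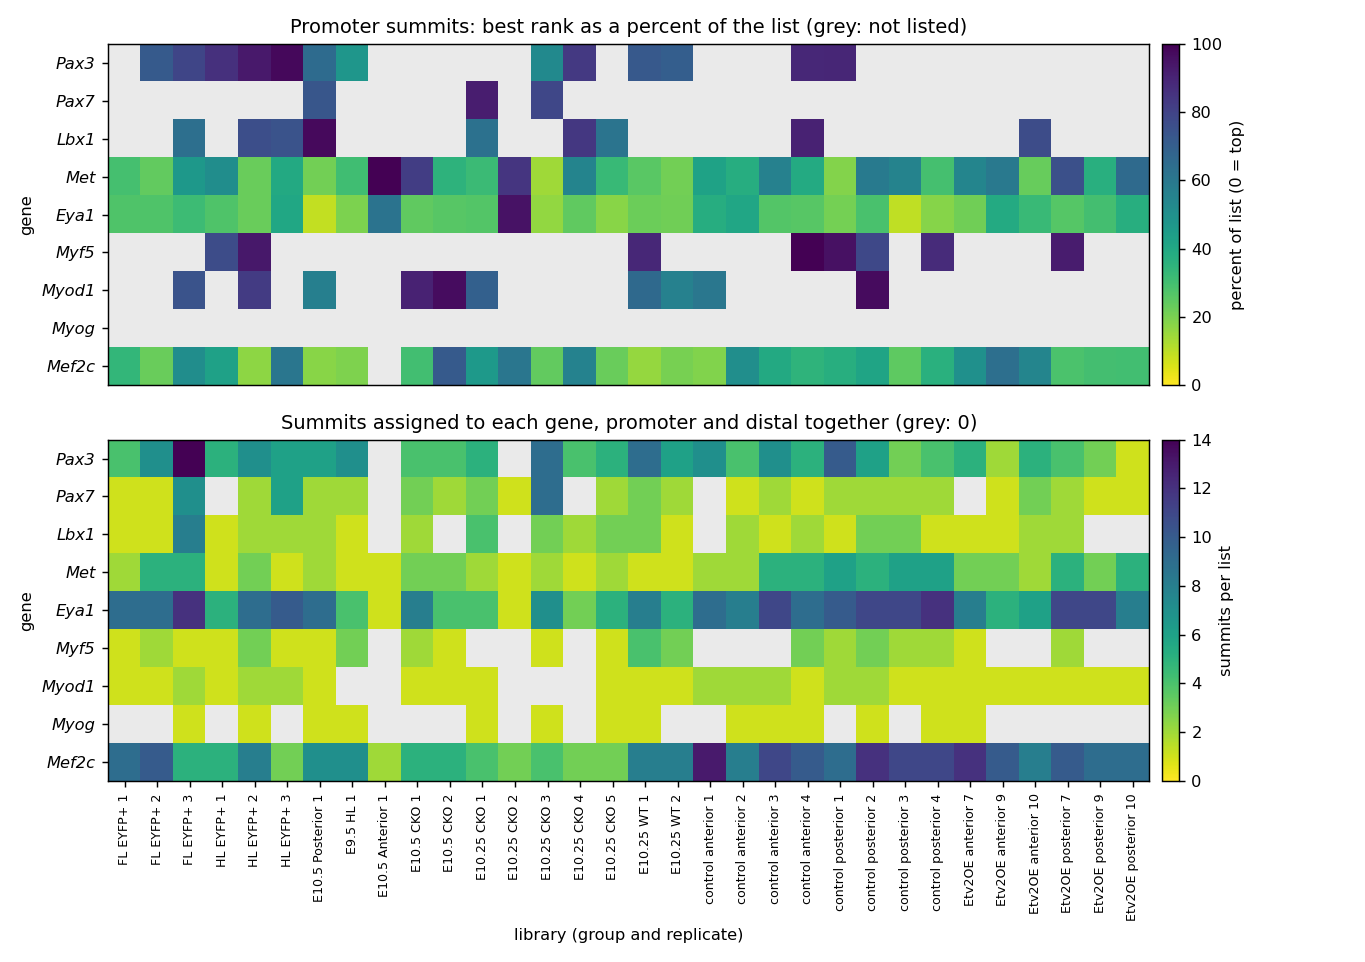
Each of the 9 genes (rows) in each of the 32 libraries (columns), with the best rank of a promoter summit as a percent of the list in the upper panel and the number of assigned summits in the lower panel. Met and Eya1 promoters were listed in 32 of 32 libraries and that of Mef2c in 31. In the upper panel grey cells fill most of the rows of Pax3, Pax7, Lbx1, Myf5, Myod1 and Myog.

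The promoters differed in how many lists held them. Those of Met and Eya1 were listed in 32 of 32 libraries and that of Mef2c in 31, with E10.5 Anterior, the shortest list, as the exception. The best Met promoter summit stood at ranks 9463 to 22529 in the EYFP+ lists, and as a percent of the list its rank ran from 22.9 to 51.0 there, 14.1 to 99.7 in the unsorted lists and 18.4 to 75.6 in the overexpression lists. The Eya1 promoter summit lay at 23.0 to 40.4% of the EYFP+ lists, 16.4 to 95.2% of the unsorted lists and 9.51 to 40.7% of the overexpression lists. These ranges overlapped between the sets for both genes. The promoters of the other 6 genes were listed in fewer libraries. That of Pax3 was listed in 5 of 6 EYFP+, 5 of 11 unsorted and 2 of 14 overexpression lists, at 71.6 to 97.8%, 47.5 to 83.6% and 88.8 to 89.4% of the list. Myod1 was listed in 2, 5 and 2 of these lists, Lbx1 in 3, 3 and 2, Myf5 in 2, 1 and 5, and Pax7 in 0, 2 and 0. The E10.5 Posterior list of Shh-EGFP+ cells held promoter summits of Pax3, Pax7, Lbx1 and Myod1 besides those of Met, Eya1 and Mef2c. No list held a summit within 1 kb of a start of Myog, the last of these factors to be switched on.

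**Figure D3:**
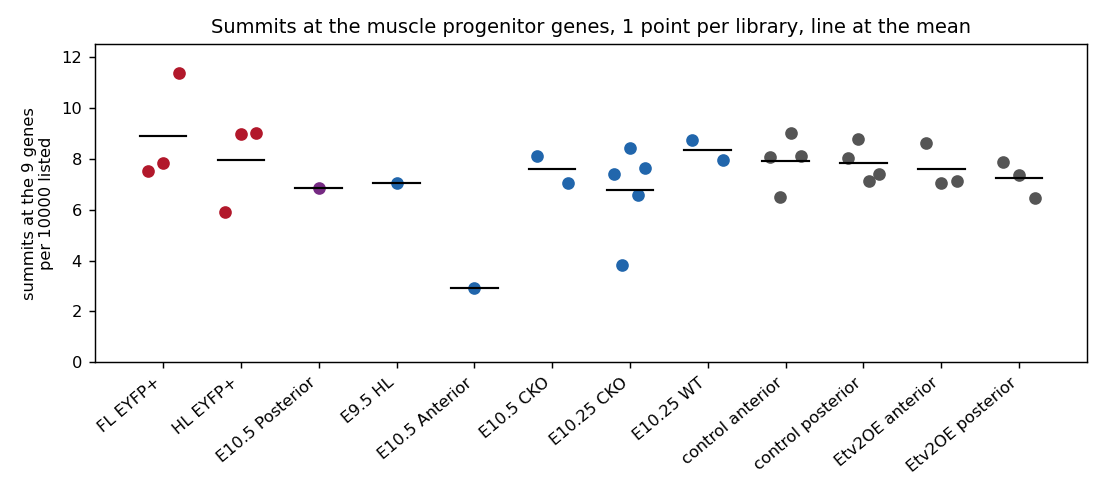
Summits assigned to the 9 genes per 10000 summits listed (vertical axis), 1 point per library, with a line at the mean of each group. The EYFP+ libraries ran from 5.89 to 11.4 and the unsorted ones from 2.91 to 8.72, with the highest value in FL EYFP+ replicate 3.

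The share of summits that lay at the 9 genes overlapped between sorted and unsorted lists. There were 8.43 ± 1.84 per 10000 listed in EYFP+ libraries (SD, n = 6) and 6.87 ± 1.85 in unsorted libraries (SD, n = 11), with the lowest, median and highest at 5.89, 8.39 and 11.4 against 2.91, 7.38 and 8.72, and the sets overlapped. The 14 overexpression libraries had 7.67 ± 0.805. The 3 shortest lists were unsorted and included the 2 lowest values, of 2.91 and 3.84. In lists of 10000 summits, which remove the difference in length, the EYFP+ libraries held 5.0 ± 1.67 summits of the 9 genes (3 to 7), or 5.5 ± 1.73 without the pool of replicate 3 (n = 4), and the unsorted ones 3.0 ± 1.0 (1 to 4), so that the sets overlapped here too. FL EYFP+ replicate 3 held 55 summits of the 9 genes, the most of any library, among them 14 of Pax3, 7 of Pax7 and 8 of Lbx1. Without its pool the EYFP+ values were 7.53, 7.82, 5.89 and 8.96 per 10000. The other 5 EYFP+ lists held 4 to 7 summits of Pax3, 0 to 6 of Pax7 and 1 to 2 of Lbx1. The Pax7 value of 6 was in HL EYFP+ replicate 3, of the same pool, and the other 4 lists held 0 to 2.

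At the genes of the migrating precursors, distal sites of Pax3 were split between the cell sets in both directions. The intronic site 67.4 kb downstream of the start was listed in all 6 EYFP+ lists, at ranks 25574, 9957 and 4474 in FL EYFP+ and 5153, 7383 and 3665 in HL EYFP+. It was in 3 of 11 unsorted lists, at ranks 24095 and 13311 in E10.5 CKO and 34009 in E10.25 WT replicate 1, and in 10 of 14 overexpression lists, where its best rank was 20446. It was not listed in any E10.25 CKO library nor in E10.5 Posterior, E9.5 HL and E10.5 Anterior. Between these sets the EYFP+ ranks were the better ones except for FL EYFP+ replicate 1. Neighbouring intronic sites 56.2 and 55.0 kb downstream were in 5 and 4 of 6 EYFP+, 1 and 2 of 11 unsorted and 7 and 7 of 14 overexpression lists. The intronic site 9.4 kb downstream had the opposite distribution, with 8 of 11 unsorted lists, 1 of 6 EYFP+ and 0 of 14 overexpression lists, at 45.9 to 95.7% of the unsorted lists. The site 7.3 kb downstream was similar, in 6, 1 and 0 lists. The difference of the 9.4-kb site between EYFP+ and unsorted did not pass the threshold in whole lists (rank score difference -0.18 ± 0.0902, SE, limma adjusted p = 0.254).

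For Pax7, the intronic site 85.7 kb downstream was in 12 of the 32 lists, in 9 of 11 unsorted and 3 of 6 EYFP+ lists and in 0 of 14 overexpression lists. Its ranks in E10.5 CKO were 7089 and 14468, and in E10.25 WT 31185 and 23173. Of the 3 EYFP+ lists that held it, 2 were of the pool of replicate 3 (ranks 14873 and 19949). The site 11.4 kb downstream was in 5 unsorted, 2 EYFP+ and 0 overexpression lists, whereas the site 23.5 kb downstream was in 3, 2 and 8. For Lbx1, the homeodomain gene needed for lateral migration, the widest site lay 14.5 kb downstream, beyond the gene, and was in 3 of 11, 3 of 6 and 8 of 14 lists, followed by a site 1.0 kb upstream (5, 1 and 1) and one 7.3 kb upstream (0, 2 and 3). For Met, intronic sites 71.4 and 55.7 kb downstream were in 11 and 9 of 14 overexpression lists but in 1 and 1 of 6 EYFP+ and 0 and 0 of 11 unsorted lists. At these Met sites the split ran between the experiments rather than between sorted and unsorted cells. The Pax7 sites 85.7 and 11.4 kb downstream were in no overexpression list. The one at 85.7 kb was also in a larger share of the unsorted than of the EYFP+ lists.

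Eya1 and Mef2c had the distal sites listed most widely. The Eya1 site 47.7 kb upstream was in 6 of 6 EYFP+, 9 of 11 unsorted and 14 of 14 overexpression lists, at 6.42 to 45.8%, 22.1 to 75.7% and 10.9 to 51.0% of the list. The Eya1 site 158.4 kb downstream, 22.8 kb past the 3′ end of the gene, was in 6, 7 and 14 lists. Its ranks were 4572, 6146 and 3327 in FL EYFP+ and 6194, 7823 and 7910 in HL EYFP+, and 11544 to 20300 in the 7 unsorted lists that held it, so that all EYFP+ ranks were better than all unsorted ranks. Mef2c, a MADS-box factor of muscle and of other mesoderm, had a site 6.1 kb before one of its starts in 6, 10 and 14 lists, a site 139.5 kb downstream in 5, 10 and 14, and one 79.4 kb downstream in 4, 4 and 14. These 5 were the distal sites of the 9 genes found in most lists (23 to 31 of 32).

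Of the determination factors, Myod1 had a single widely listed site. It lay 36.5 kb upstream, between genes, and stood at 10.15 to 42.4% of the EYFP+ lists (median 29.1) and 33.1 to 96.4% of the overexpression lists (median 63.6). The ranks were 11409, 11439 and 4909 in FL EYFP+ and 8891, 17514 and 11600 in HL EYFP+. All 6 EYFP+ and all 14 overexpression lists held it, and none of the 11 unsorted lists nor E10.5 Posterior did. The overexpression libraries, controls included, were not described as sorted on a reporter either, so the split did not follow sorting alone. Among all 93875 sites listed in at least 2 of the 17 EYFP+ and unsorted libraries, 0.45% were in all 6 EYFP+ and in no unsorted list, and this was 1 of 92 for the 9 genes. The reverse, in all 11 unsorted and no EYFP+ list, held for 0.00213% of all sites and for 0 of the 92. The other Myod1 sites, 27.5 and 27.2 kb upstream in exons of 1700025L06Rik, were in 4 and 3 of the 32 lists. Myf5 had an intronic site 1.8 kb downstream in 6 unsorted and 0 EYFP+ or overexpression lists, a site 2.7 kb upstream in 3, 4 and 4, and one 43.2 kb downstream in 1, 1 and 5. Summits beyond the midpoint to the neighbouring gene Myf6 counted for Myf6 and not for Myf5. Myog had only sites 9.2 and 9.0 kb downstream, inside an intron of Ppfia4, in 12 and 2 lists.

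**Figure D4:**
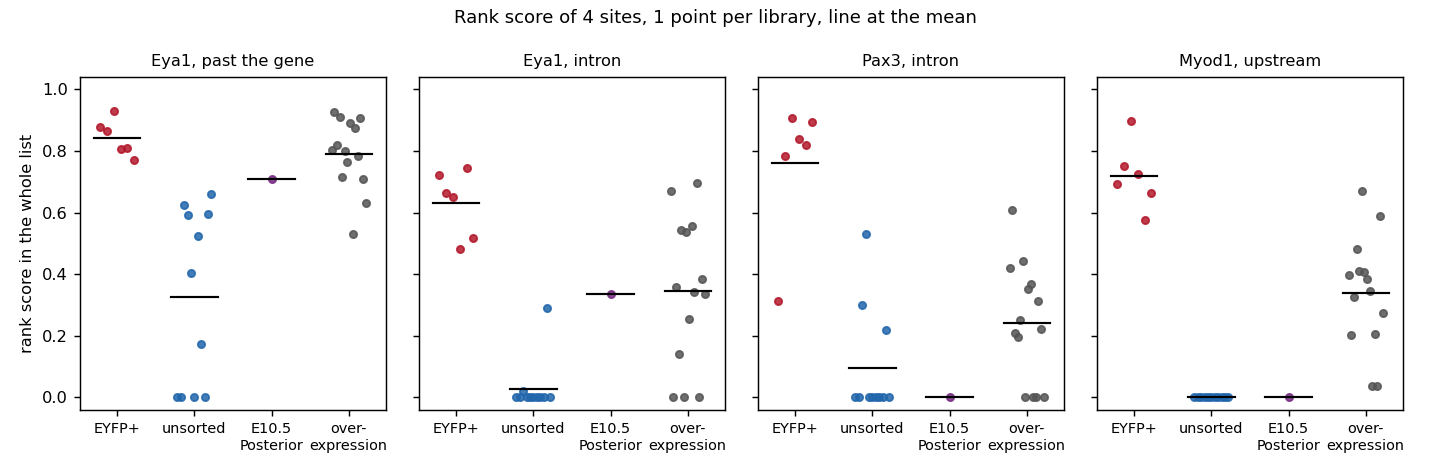
Rank score in the whole list (vertical axis, 1 for the top of the list and 0 when not listed) of 4 sites of Eya1, Pax3 and Myod1 in the EYFP+, unsorted, E10.5 Posterior and overexpression libraries, 1 point per library, with a line at the mean. At the Myod1 site and at the Eya1 sites every EYFP+ point lies above every unsorted point, and at the Pax3 site 1 EYFP+ point lies among the unsorted ones.

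The first test asked which sites ranked differently in cells that expressed the Etv2 reporter and in unsorted limb bud cells. Eya1 and Pax3 each had a site that ranked higher in the EYFP+ cells. In stained E10.5 limb buds, the study found PRRX1 but no PAX3 or desmin protein in Etv2-EYFP+ cells. The rank of a site is not a measure of protein, and whether the sorted cells held muscle precursors was not tested. Ranks were turned into a rank score that fell evenly from 1 at the top of the list to near 0 at its end and was 0 where the site was not listed, and lists were shortened to their 10000 best summits so that length played no part. Of the 14 sites of the 9 genes that were tested, 2 passed an adjusted p of 0.05 in limma, both higher in EYFP+ cells, against 4.89% of all 23790 sites in either direction and 3.98% in this direction. The median difference was 0.0239 over the 14 sites and -0.0231 over all sites. The Eya1 site 158.4 kb downstream was in the best 10000 of 6 of 6 EYFP+ and 0 of 11 unsorted lists, with a difference of 0.40 ± 0.0540 (SE, limma adjusted p = 0.000168). The Pax3 site 67.4 kb downstream was in 5 of 6 and 0 of 11, with a difference of 0.32 ± 0.0792 (adjusted p = 0.0236). Without the pool of replicate 3, the Eya1 site was still called, the Pax3 difference was 0.19 ± 0.0664 (adjusted p = 0.111), and the second call was at the Eya1 site 47.7 kb upstream (0.33 ± 0.0947, adjusted p = 0.0490). Leaving out FL EYFP+ replicate 3 or HL EYFP+ replicate 1 alone also ended the Pax3 call (adjusted p = 0.0587 and 0.0643).

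In whole lists 5 of 92 sites of the 9 genes were called, all higher in EYFP+, against 7.28% of all 93875 sites and 7.03% in this direction. The share of calls that were higher in EYFP+ was 947 of 1164 in equal lists and 6602 of 6832 in whole lists, which are longer for EYFP+ cells. The calls were the Myod1 site (difference 0.72 ± 0.0350, adjusted p = 4.235e-10, Fisher's exact test on listing adjusted p = 0.0179), the Eya1 intronic site 119.6 kb downstream (0.60 ± 0.0489, adjusted p = 2.541e-07), the Pax3 site 67.4 kb downstream (0.66 ± 0.0951, adjusted p = 0.000198), the Eya1 site 158.4 kb downstream (0.52 ± 0.116, adjusted p = 0.00885) and a Mef2c intronic site 6.2 kb before a start (0.52 ± 0.116, adjusted p = 0.00897). Without the pool of replicate 3 all 5 were called again, at adjusted p-values of 9.57e-10, 2.306e-06, 0.00285, 0.0336 and 0.0345 in this order, together with the Pax3 site 55.0 kb downstream (adjusted p = 0.0447). Without the 3 shortest unsorted lists the first 4 were called (1.133e-07, 1.819e-05, 0.00329 and 0.0405), and the Mef2c site was not (0.0519). Another fit used the E10.5 unsorted libraries alone, which were E10.5 Anterior, the shortest list, and the 2 of E10.5 CKO. Against these, the Myod1 site (0.000955), the Eya1 site at 119.6 kb (0.00193) and the Mef2c site (0.0040) were called. The Pax3 site (0.157) and the Eya1 site at 158.4 kb (0.136) were not. Only 2 EYFP+ lists held the Myod1 site among their best 10000 summits, and in lists of that length it was not called (limma adjusted p = 0.366). In whole lists all 11 unsorted scores of the Myod1 site were 0, for not listed, and added no spread. Its unadjusted p in Fisher's exact test was the lowest that 6 against 11 lists can give. Both tests on whole lists counted the forelimb and hindlimb library of a pool as separate, although their deviations correlated. Means of pools were tested only in lists of 10000, so these p-values may be too low. The stage was equal in the comparison of E10.5 libraries. The sort for EYFP, the genotype, the limb and the portion of the limb bud still differed together there and cannot be told apart. Of the 6 EYFP+ libraries 3 were forelimb, and the unsorted ones were all hindlimb.

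The second test compared wild-type with Etv2CKO posterior hindlimb at E10.25. None of the 5 tested sites of the 9 genes passed in equal lists, against 1.88% of all 16004 sites. An unadjusted p under 0.05 was reached by 0 of the 5 and by 1850 of all 16004 sites. In whole lists 3 of 44 were called, all higher in wild type, against 4.0% of all sites in either direction and 3.86% in this one. They were the Mef2c intronic site 79.4 kb downstream, listed in 2 of 2 wild-type and 1 of 5 Etv2CKO lists (difference 0.55 ± 0.0760, limma adjusted p = 0.0117), a Mef2c intronic site 7.3 kb downstream in 2 and 0 lists (0.30 ± 0.0553, adjusted p = 0.0348) and the Eya1 intronic site 119.4 kb downstream in 2 and 0 lists (0.32 ± 0.0556, adjusted p = 0.0283). The last one neighbours the Eya1 site at 119.6 kb and can share summits with it. The wild-type lists held 34051 and 43566 summits and the Etv2CKO lists 15626 to 42742, and in equal lists of 10000 none of these 3 sites was held by enough libraries to be tested.

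Muscle precursors reach the forelimb earlier than the hindlimb, and the third test compared FL EYFP+ with HL EYFP+. None of 8 tested sites of the 9 genes, and 0.0% of all 14913 sites, passed in limma. An unadjusted p under 0.05 was reached by 0 of the 8 and by 535 of all 14913 sites. In whole lists 0.237% of all sites were called (0.161% higher in FL EYFP+) and 1 of 57 sites of the 9 genes, the Mef2c intronic site 36.8 kb downstream. Its ranks were 15120, 13156 and 17381 in FL EYFP+ and it was in 0 of 3 HL EYFP+ lists (difference 0.65 ± 0.0681, limma adjusted p = 0.0415). With the pool as a replicate block the adjusted p was 0.345, and without the pool of replicate 3 it was 0.140. The site was in 0 of 11 unsorted and 9 of 14 overexpression lists.

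The fourth test asked whether Etv2 overexpression moved any of these sites, with the mean of both portions of an embryo as 1 value. None of the 47 tested sites of the 9 genes passed in limma, against 0.0234% of all 59717 sites. Of all 59717 sites, 3723 had an unadjusted p under 0.05. Among the 47, 2 did, the Eya1 intronic site 119.4 kb downstream (difference 0.18 ± 0.0671, adjusted p = 0.791) and the Mef2c site 79.4 kb downstream (0.24 ± 0.0903, adjusted p = 0.792). In whole lists 0 of 77 passed, against 0.0408%. An unadjusted p under 0.05 was reached by 11 of the 77 and by 9738 of all 95607 sites. The lowest p among the 77 was that of the Mef2c intronic site 32.6 kb downstream, listed in 8 of 8 control and 2 of 6 Etv2OE libraries (-0.33 ± 0.0815, adjusted p = 0.266). Whether overexpression acted differently in the anterior and posterior portion was tested by the difference of portions within an embryo. Of the 47 sites 0 passed, against 0.0067% of all sites. An unadjusted p under 0.05 was reached by 3 of the 47 and by 2876 of all 59717 sites.

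**Figure D5:**
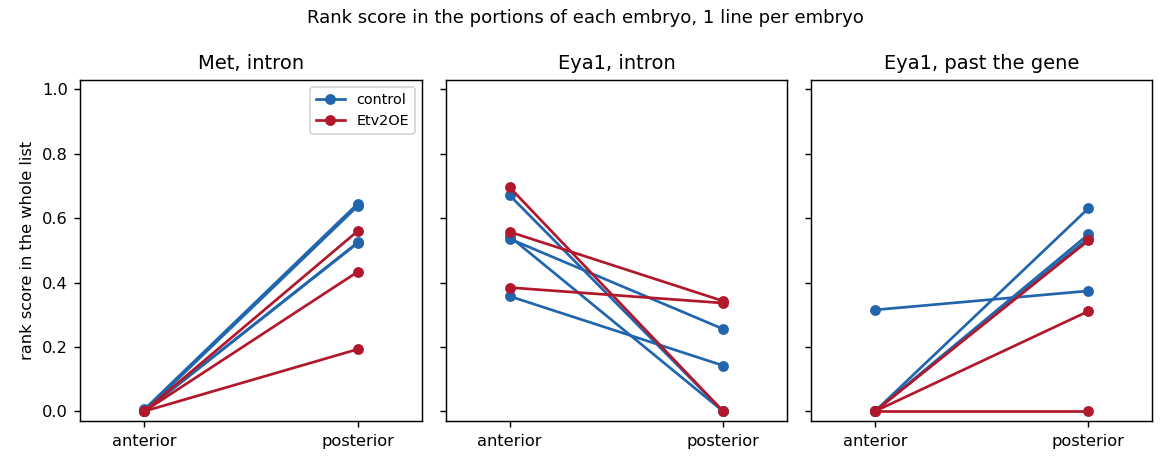
Rank score in the whole list (vertical axis) of a Met site and of Eya1 sites in the anterior and posterior portion of each embryo, 1 line per embryo, for 4 control and 3 Etv2OE embryos. The Met score rises from anterior to posterior in 7 of 7 embryos, and the Eya1 intronic score falls in 7 of 7.

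The fifth test compared the anterior and posterior portions of the control hindlimb. Of the 36 tested sites of the 9 genes, a Met and an Eya1 site had the lowest p in equal lists. None of the 36 passed, against 1.86% of all 48673 sites. An unadjusted p under 0.05 was reached by 6 of the 36 and by 5875 of all 48673 sites. In whole lists 3 of 62 were called, against 2.9%. The first was the Met intronic site 9.8 kb before an internal start. It ranked at 24997, 24377, 19806 and 19171 in the 4 posterior controls and was in 1 of 4 anterior controls, at rank 45505 of 45762. The difference was -0.58 ± 0.0428 (anterior minus posterior, limma adjusted p = 0.000737), and -0.58 ± 0.0464 with the embryo as a replicate block (adjusted p = 0.0484). The Etv2OE embryos, which this fit did not use, listed it in 3 of 3 posterior portions, at ranks 20702, 21617 and 31265, and in 0 of 3 anterior portions (-0.40 ± 0.102, adjusted p = 0.215). These embryos were added to the controls after the values were seen. Over all 7 embryos with the embryo as a replicate block the difference was -0.50 ± 0.0557 (adjusted p = 0.00622). None of the 18 lists of the first experiment, E10.5 Posterior included, held the site.

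The other calls were at Eya1, and a Pax7 site 23.5 kb downstream, in 1 of 4 anterior and 4 of 4 posterior controls, did not pass (-0.33 ± 0.0703, adjusted p = 0.0582). The Eya1 intronic site 119.6 kb downstream ranked higher in anterior controls, at 13477, 27670, 20269 and 21247 against 43987 and 40193 in 2 of 4 posterior controls (0.43 ± 0.0850, adjusted p = 0.0446). The site 167.6 kb downstream, 32 kb past the gene, ranked higher in posterior controls, in 4 of 4 against 1 of 4 (-0.44 ± 0.0900, adjusted p = 0.0475). With the embryo as a replicate block these adjusted p-values were 0.188 and 0.236, and over all 7 embryos 0.0829 and 0.0898. The posterior control lists were longer (51265 to 54676 summits) than the anterior ones (40945 to 45762). In equal lists of 30000 the adjusted p-values were 0.0638 for the Met site and 0.210 and 0.368 for the Eya1 sites at 119.6 and 167.6 kb.

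Several sites were found in 1 experiment and not in the other. Pax3 38.7 kb downstream was in 12 of 14 overexpression lists and Mef2c 32.6 kb downstream in 10 of 14, and neither was in any of the 18 lists of the first experiment. They were the 2 of 135 sites of the 9 genes that were in at least 10 of the 14 and in none of the 18, against 0.475% of all sites. Pax7 85.7 kb downstream was the 1 of 135 in at least 10 of the 18 and in none of the 14, against 0.349% of all sites. Experiment, genotype and harvest differ together here and cannot be told apart.

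Sites of 22 other muscle and migration genes were called at shares near or below those of all sites in most of these comparisons. Between EYFP+ and unsorted lists 1 of 36 passed in limma, or 2.78% against 4.89% of all sites, and in whole lists 12 of 183 passed, or 6.56% against 7.28%, all higher in EYFP+. Without the pool of replicate 3 the counts were 0 of 33 (6.79% of all sites) and 13 of 160 (8.12% against 7.78%). At E10.25, 0 of 21 passed in equal lists, against 1.88%, and 3 of 114 in whole lists, or 2.63% against 4.0%, with 2 higher in wild type and 1 in Etv2CKO. Between FL EYFP+ and HL EYFP+ the counts were 0 of 21, against 0.0%, and 1 of 115, or 0.87% against 0.237%, a single site that was not called without the pool of replicate 3 (0 of 87). Between Etv2OE and control they were 0 of 95 and 0 of 183, against 0.0234% and 0.0408%. Between control portions they were 0 of 75, against 1.86%, and 4 of 149, or 2.68% against 2.9%, all higher in posterior. The promoters of Six4, Meox2, Gab1, Dach2 and Mef2a were in 32 of 32 lists and that of Chrna1 in none. The promoter of Myf6, the neighbour of Myf5, was in 7 of 14 overexpression lists, 1 of 6 EYFP+ and 0 of 11 unsorted lists.

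Over the 18 libraries of the first experiment, the summed rank score of a gene's distal sites was compared with that of 8579 genes, as a description in which all points share libraries and list length. The patterns nearest to that of Eya1 were those of Pmaip1, Med30 and Ubl3 (Spearman's rho 0.969, 0.965 and 0.957), and those nearest to Mef2c were Tead4, Nfkbiz and Vmn2r86 (0.940, 0.932 and 0.926). For Myod1 they were Adora2b, Cdca2 and Mylip (0.944, 0.944 and 0.941), for Lbx1 Pkm, Itgb5 and Slc4a5 (0.923, 0.890 and 0.872), and for Myf5 Ism1, Cubn and Ncoa7 (0.900, 0.896 and 0.869). For Pax7 they were 5730596B20Rik, Irf2 and Midn (0.891, 0.882 and 0.874), for Myog Ppp1r9b, Asgr1 and Amh (0.882, 0.854 and 0.853), for Met Tcf12, Fhod3 and Reep5 (0.879, 0.870 and 0.868), and for Pax3 Cdk5rap3, Col6a3 and Nudt2 (0.872, 0.868 and 0.862). None of the 9 genes was among the nearest 3 of another. The same score followed list length at a rho of 0.745 for Eya1, 0.748 for Mef2c, 0.597 for Lbx1 and 0.305 to 0.570 for the others.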

How the data were processed

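Cells of mouse limb buds were profiled by ATAC-seq, and 1 summit list was deposited for each of the 32 libraries. According to the methods of the study, reads were mapped to mm10 with Bowtie2 (version 2.2.4, per the submitters' processing notes) and only unique alignments were kept, duplicates were removed and read starts were shifted for the Tn5 insertion. The methods define peaks by read coverage for another step, and MACS2 is named in the submitters' processing notes, but the step that made the summit lists, its version and its options are not described for these files in the sources used. The score that the authors deposited for each summit was read as the −log10 of a q-value, since the lowest score of each list lay just above that of a q of 0.05. It grows with sequencing depth, so only ranks within a list were used, and since the lists hold no read counts the depth of each library is unknown.

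Summits of chrM were left out. Summits of all lists were merged into sites of 200 bp, a list held a site when a summit lay within 200 bp of its centre, and 133148 of 186170 sites were kept because at least 2 libraries listed them. Genes and starts were those of the protein-coding genes of GENCODE M21, and bases were read from GRCm38.p6. The rank score was (list length + 1 - rank) / list length, or 0 for a site not listed, and was tested in limma 3.58.1 (R 4.3.3) with Benjamini-Hochberg adjustment over all sites listed in at least 2 compared libraries, at an adjusted p of 0.05. Lists were shortened to 10000 summits in the first experiment and 30000 in the overexpression experiment, and whole lists were an alternative. The tests were also run on simulated scores with independent noise for each library. These lacked the correlation within pools seen in the data, so that run does not show how the tests behave on these lists. The p-values measure the spread between these samples, some of which pooled several embryos, and may be technical in part.

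The 9 genes, the list of 22 other muscle genes, the marker lists and the sequence words were chosen with earlier results of these data known. Named were all 9 genes, their sites past the threshold in a test on equal lists, promoter sites in at least 8 lists, the 3 distal sites of each gene found in most lists, and the 3 genes with the most similar distal score. Sites named for a call in whole lists, for their listing in 1 experiment, for an unadjusted p or for their low p near the threshold (such as the Pax3 sites 38.7 and 7.3 kb downstream) were named after their values were seen.

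Alternatives were lists of 5000 and 15000 summits, whole lists, lists of 25000, a summit within 100 bp, sites of 1 library, Fisher's exact test on listing (reported where enough lists were compared), each library left out, and replicate blocks. FL EYFP+ and HL EYFP+ libraries of the same replicate number share a further number, read here as 1 pool. Their deviations from the group means correlated at 0.291, 0.287 and 0.607 within pools and -0.387 to 0.174 between pools. Anterior and posterior portions of the same number come from 1 embryo per the labels, and their correlations were -7.25e-05 to 0.0411 in the 4 controls and 0.0214 to 0.0401 in the 3 Etv2OE embryos. The alternatives without the pool of replicate 3 or the 3 shortest lists, with the E10.5 libraries alone, with the blocks in whole lists and with the Etv2OE embryos in the comparison of portions were chosen after the data were seen. Some sequences and genes are not reported here.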

Additional observations from a re-analysis of the deposited data

Results flagged for a closer look

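Numbers of summits per gene were checked for a library far from the rest of its group in 43 sets of values, and 7 were marked. The rule was meant to mark about 1 in 20 groups by chance, which may not hold for small counts with ties. The 7 are therefore not read as an excess. In the EYFP+ libraries, FL EYFP+ replicate 3 had 14 summits of Pax3, with 7 in the next library and a median of 6 in the others, and 8 summits of Lbx1, with 2 in the next and a median of 1 in the others. This library also listed the promoters of both forelimb and hindlimb factors. In the control anterior portions, embryo 4 had 3 summits of Myf5 where the other embryos had 0, and 1 summit of Myod1 where they had 2, and embryo 1 had 0 summits of Myog where the others had 1. In the control posterior portions, embryo 2 had 5 summits of Met where the others had 6, and 3 of Myf5 where the others had 2. Of these 7, the Met and Myod1 values, the Myog value and the posterior Myf5 value differed from the rest by 1 summit.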

How the results depend on the processing

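Among the sites of the 9 genes tested in equal lists, no limma difference changed its sign where it was called. Sites tested only in whole lists were not part of this check. Lists of lower length, at 5000 or 15000 summits, gave fewer calls. Between EYFP+ and unsorted lists 407 sites were called, with 0 sites of the 9 genes. There were 178 calls at E10.25, 1 for Etv2OE and 257 between control portions. Whole lists gave 6832, 2234, 146, 39 and 2400 calls in the order of the 5 comparisons, with 5, 3, 1, 0 and 3 sites of the 9 genes. Fisher's exact test gave 424 calls between EYFP+ and unsorted lists, with 1 site of the 9 genes. For Etv2OE it gave 0 calls with 6 against 8 libraries, where both portions of an embryo counted as separate libraries. Its lowest unadjusted p there is 0.000333. A call would need many sites at that value together, so no conclusion is drawn from the 0. With the 2 against 5, 3 against 3 and 4 against 4 lists of the other comparisons the lowest unadjusted p of the test is 0.04762, 0.1 and 0.02857, so its 0 calls there say nothing. Lists of 25000 gave 3232 calls, or 5.67% of 56984 sites, and 6 of the 43 tested sites of the 9 genes were called. Among them was the Eya1 promoter site, lower in EYFP+ (-0.16, limma adjusted p = 0.0453). Whole lists without the 3 shortest gave 4722 calls with 4 sites of the 9 genes, and without the pool of replicate 3 they gave 6739 with 6. Whole lists of E10.5 libraries alone gave 2282 and left the Pax3 site at 67.4 kb (limma adjusted p = 0.157) and the Eya1 site at 158.4 kb (limma adjusted p = 0.136) not called. Counting E10.5 Posterior with EYFP+, or the overexpression libraries as unsorted, left 1 called site of the 9 genes each. With sites of 1 library kept, FL EYFP+ against HL EYFP+ gave 2 calls and Etv2OE gave 30. Anterior portions alone gave 65 calls for Etv2OE and posterior portions alone 61, none at the 9 genes. A summit within 100 bp gave 526 calls between portions. With the embryo as a replicate block, calls between control portions were 0 in equal lists, and 187 in whole lists with 1 site of the 9 genes (Met). All 7 embryos with the replicate block gave 1214 in equal and 2079 in whole lists with 1 site (Met), and the Etv2OE embryos alone gave 356. With the pool as a replicate block, FL EYFP+ against HL EYFP+ had 0 calls. The mean of each pool as a replicate block in EYFP+ against unsorted called 2 sites of the 9 genes, Eya1 at 158.4 kb (adjusted p = 3.643e-06) and Pax3 at 67.4 kb (adjusted p = 0.00813). Leaving out each library in turn gave 889 to 1309 calls between EYFP+ and unsorted lists, with 1 to 2 sites of the 9 genes. At E10.25 it gave 125 to 327 with an Etv2CKO library left out, and 0 sites of the 9 genes. It gave 0 in FL EYFP+ against HL EYFP+ and 0 to 10 for Etv2OE. Between portions it gave 654 to 919, with 0 to 1 site of the 9 genes. At E10.25 the count was 0 without either wild-type library, whose lone partner is then assumed to vary like the other group, and 125, 186 and 147 without E10.25 CKO replicates 1, 2 and 5. For Etv2OE it was 0 or 1 without control embryos 2, 3 or 4 or Etv2OE embryos 9 or 10, and 7 without control embryo 1. Between portions an Eya1 site was called without the anterior library of embryo 2 or 4. In lists of 10000 the 9 genes had 102 summits and in lists of 30000 they had 594. The causes of these shifts were not tested, and a summit below the length of a list cannot be seen at this depth.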
